A study of Gossypium herbaceum with 12 samples.

Results

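The response of Vagad roots to drought was measured on 6 of the 12 arrays of the series, 3 of droughted plants and 3 of watered plants. Vagad is a drought-tolerant genotype of the diploid cotton Gossypium herbaceum, and its arrays were picked by the titles that name a tolerant genotype under drought or under water, the name Vagad coming from the methods of the study. The plants were 1 month old and grew in pots in a glasshouse, 3 pots to a group. In the drought group water was withheld so that soil moisture stayed below 30%, and the watered group was irrigated daily. The labels say that droughted pots received water once in alternate weeks, whereas the methods of the study give 7 days without water, and the files do not settle which applied. The other 6 arrays hold roots of the drought-sensitive genotype RAHS-14 under drought (3) and under watering (3). The study calls its arrays biological replicates, but no label ties an array to a pot, so the p-values below measure the spread between these arrays, some of which may be technical. Each array held whole-root RNA, and more cells of a type cannot be told apart from more transcript in each cell.

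Roots meet drying soil first. In plants under water deficit the hormone abscisic acid accumulates and is broken down again by enzymes of the CYP707A family, chaperones such as the small heat-shock proteins keep other proteins from aggregating, and expansins loosen the cell wall where cells elongate. Chitinases, osmotins and other pathogenesis-related proteins are secreted in defence, and several of them also respond to water deficit, jasmonate or ethylene.

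The Affymetrix cotton array carries 24132 probe sets, of which 103 are controls and 24029 were analysed. Values are MAS5 intensities, a linear brightness that the authors scaled on each array with a single factor, floored here at 16 for all tests and set on the log2 scale. Drought replicates 1 and 2 stood apart from every other array. Their median intensities were 322 and 345, against 70.9 on drought replicate 3, 60.8 to 64.6 on the watered Vagad arrays and 60.8 to 74.2 over the 9 arrays outside this drought group. The 23 controls for transcripts that plants lack had a median of 136 and 98.2 and reached 688.5 and 702.1 on drought replicates 1 and 2, whereas they had a median of 3.01 and reached 20.9 on replicate 3. On those 9 arrays these controls had medians of 2.03 to 6.94 and reached at most 39.9. Across probe sets, which are not independent replicates, the mean correlation of the log2 values with the watered Vagad arrays was 0.61 and 0.46 for drought replicates 1 and 2, and 0.97 for replicate 3. The 3′ to 5′ signal ratio of the actin controls was 9.23, 5.42 and 41.3 on drought replicates 1, 2 and 3, against 14.5 to 20.2 on the watered arrays. On replicate 3 the ratio was 4.35 for the ubq11 controls and 8.73 for the ss1 controls. The watered arrays had 1.75 to 4.25 and 4.17 to 5.86, so replicate 3 lay above the watered range in each of these measures. Drought replicate 3 is therefore given separately throughout, and whether RNA quality contributed to its values was not tested.

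**Figure D1:**
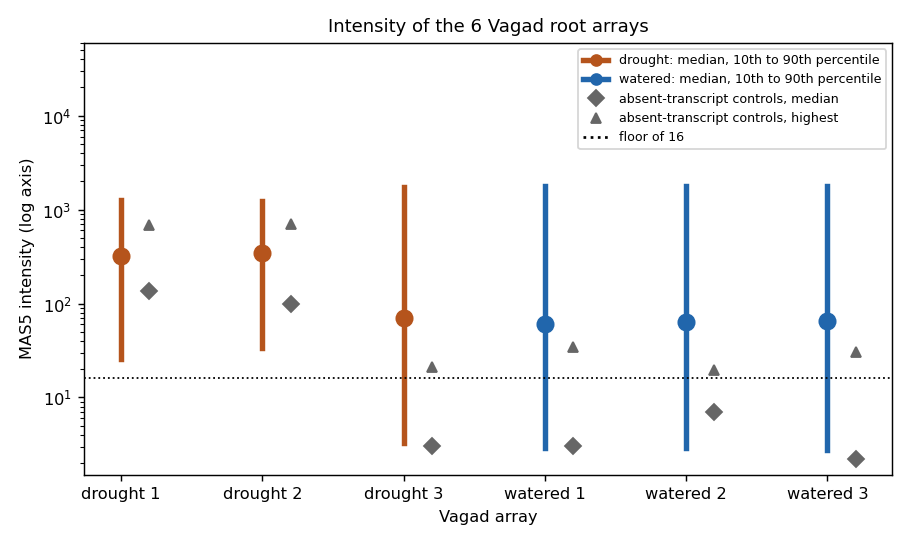
Median intensity of all probe sets and intensities of the 23 controls for transcripts that plants lack, array by array on a log scale. Drought replicates 1 and 2 of Vagad had medians of 322 and 345, and the other 10 arrays of the series lay between 60.8 and 74.2.

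Over the 24029 probe sets, the 3 drought arrays all lay below the 3 watered arrays for 2202 (9.16%) and all lay above them for 4366 (18.2%). On replicate 3 alone, 954 probe sets (3.97%) were at least 2-fold below the watered mean and 1375 (5.72%) at least 2-fold above it. Both conditions held for 338 lower probe sets (1.41%) and 952 higher ones (3.96%). These counts carry no test, and the split between the directions depended on the scaling: with each array centred on its median 7443 probe sets lay below and 908 above, and after quantile normalization 3160 below and 2112 above. Without drought replicate 3 the counts were 4605 below and 12777 above. A limma fit to the 6 Vagad arrays called no probe set in either direction, where a call asked for p under 0.05 after Benjamini-Hochberg adjustment and for a 2-fold change or more, while 578 lower (2.41%) and 2623 higher probe sets (10.9%) had an unadjusted p under 0.05 with that change. Without drought replicate 3 the same fit called 2008 lower and 7263 higher. A second limma fit left out drought replicates 1 and 2 and took the spread from the 9 arrays of the other groups, so replicate 3 alone stood for droughted Vagad and was assumed to vary like the other arrays. By that fit 673 probe sets fell (2.8%) and 767 rose (3.19%), or 1076 and 590 with each array centred on its median. Of these, 298 of the 673 (1.24% of all probe sets) lay below the watered arrays on all 3 drought arrays and 538 of the 767 (2.24% of all) lay above them. In what follows "fell" and "rose" refer to the fit with replicate 3 alone, and its adjusted p is given with most values.

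The direction on drought replicates 1 and 2 followed the level of a probe set under watering. Among the 12062 probe sets whose watered mean was at or below 64, the median log2 change over the watered mean was 2.48, 2.91 and 0.00 on drought replicates 1, 2 and 3, and among the 871 of the brightest of 5 classes it was -1.06, -1.35 and 0.04. Accordingly, 25.7% of the dimmest class lay above the watered arrays on all 3 drought arrays and 0.166% below, whereas among the brightest class 5.97% lay above and 32.4% below. With the condition on replicate 3 added, the shares were 5.97% above and 0.0415% below in the dimmest class, and 0.23% above and 4.13% below in the brightest. Bright probe sets were thus more often below than above, and dim ones, with little room over the floor, almost never below. Of the 952 higher probe sets, 123 (12.9%) were brighter on drought replicates 1 and 2 than the highest control for absent transcripts on the same array. In the others, replicate 1 or replicate 2 read no more than such a control did.

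**Figure D2:**
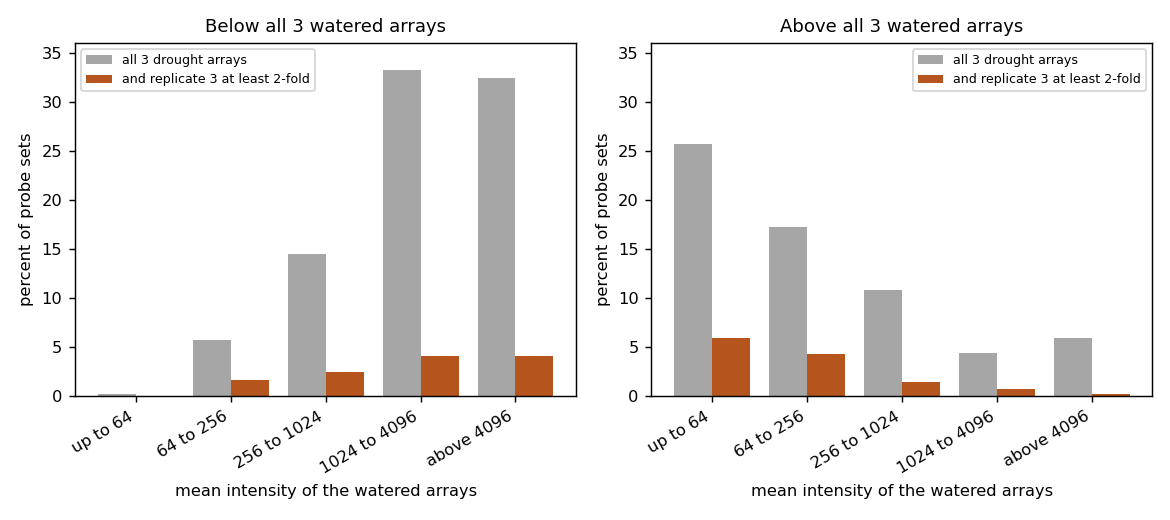
Share of probe sets below (left panel) and above (right panel) all 3 watered arrays on all 3 drought arrays, in percent, by the watered mean intensity, with and without the condition that drought replicate 3 differs at least 2-fold. Lower probe sets made up 0.166% of the dimmest class and 32.4% of the brightest, and higher ones 25.7% and 5.97%.

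Probe sets are given by their array identifiers, written here without the point that follows the species prefix. Gene names came from the lists of the study, which annotate 1055 of the 24029 probe sets, and 880 of these had a name specific enough to use. Those lists were chosen on these same arrays, so a direction shared by their members is not independent evidence. Of the 338 lower probe sets 89 had such a name and of the 952 higher ones 81. The 20 lower and the 12 higher with the widest gap between the groups are described first. The gap is the log2 distance between the nearest arrays of the 2 groups. The change of replicate 3 was part of this choice, so the fit with replicate 3 alone restates it for them, and its values are given as a description. Its adjusted p ran from 9.13e-08 to 0.00741 for the 20 and from 6.92e-07 to 0.0222 for the 12, while the fit to all 6 arrays gave an adjusted p of 0.310 for every one of them. The last of the 20 had a gap of 1.64 and the next outside 1.63, and on the higher side the last inside had 1.58 and the next outside 1.54.

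The widest gap of the 20 was that of a cell wall protein. The expansin-like protein EXLB1 (GhiAffx46297.1.S1_s_at), of a family related to the wall-loosening expansins, read 61.5, 85.6 and 206 on drought replicates 1, 2 and 3, against 2974, 2574 and 2818 under watering. The 2 groups were far apart on every array, and on replicate 3 the value was 13.5-fold lower than the watered mean (log2 change -3.76, SE 0.23, adjusted p = 7.01e-05). A glycosyl hydrolase (Ghi10826.1.S1_at), of the enzymes that cut sugar bonds, read 27.9, 408 and 44.4 under drought, against 2331, 2308 and 2355 under watering. Its drought replicate 2 was the highest of the 3 and still below all watered arrays (log2 change -5.71, SE 0.46, adjusted p = 3.16e-04). The BURP domain protein (Gra2038.1.A1_s_at), from a plant family that includes proteins of dehydration and seed development, was dim throughout, at 31.3, 21.0 and 22.9 under drought and 101, 181 and 163 under watering, without overlap (log2 change -2.65, SE 0.33, adjusted p = 0.00249).

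Several of the 20 were defence proteins. The acidic endochitinase CHIB1 (Ghi6435.1.A1_at), which cuts the chitin of fungal walls, read 65.9, 65.1 and 432 under drought and 4187, 4373 and 4359 under watering. The 3 watered arrays lay close together and replicate 3 was 9.97-fold below their mean (log2 change -3.32, SE 0.06, adjusted p = 9.13e-08). Endochitinase 1 (Ghi6521.1.S1_at), a chitinase of the PR-3 class, read 291, 561 and 334 under drought, against 3893, 3589 and 3955 under watering, again with a wide gap and a fall on replicate 3 (log2 change -3.51, SE 0.11, adjusted p = 2.10e-06). The probe set of an osmotin-like protein of the PR-5 class (Ghi10646.1.S1_s_at), which permeates fungal membranes and gathers under salt and water stress, read 687, 459 and 149 under drought, against 5966, 7429 and 7647 under watering. Here replicate 3 was the lowest of the drought arrays and lay 46.9-fold below the watered mean (log2 change -5.55, SE 0.17, adjusted p = 1.34e-06). The wound-induced protein WIN2 (GhiAffx25472.1.A1_s_at), a chitin-binding protein, read 299, 539 and 429.8 under drought and 3868, 3595 and 3479 under watering (log2 change -3.08, SE 0.09, adjusted p = 1.15e-06). PR1 (Ghi8071.1.S1_at), the common marker of salicylate-dependent defence, was near the floor at 8.96, 28.2 and 11.0 under drought, against 116, 155 and 189 under watering (log2 change -3.23, SE 0.41, adjusted p = 0.00261). MIC1 (Ghi6546.1.S1_s_at), a cotton root protein named for its induction by the root-knot nematode Meloidogyne, read 148, 62.7 and 365 under drought and 1283, 1139 and 1288 under watering, and the groups did not overlap (log2 change -1.76, SE 0.07, adjusted p = 5.62e-06). The study designed a primer pair for the transcript of CHIB1, which had the smallest adjusted p of the 20, and the pair is shown because it gives the stretch by which that transcript can be amplified.
Ghi6435.1.A1_at forward: taacaagttcggcaatggtcgta
Ghi6435.1.A1_at reverse: cttgattcctcggctttgacaa

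Proteins of signalling and gene control fell as well. The receptor protein kinase-related probe set Ghi5773.1.S1_at had the deepest fall on replicate 3 among the 20. It read 145, 566 and 34.1 under drought, against 7483, 6660.5 and 6485 under watering, and replicate 3 lay 201-fold below the watered mean (log2 change -7.65, SE 0.17, adjusted p = 2.68e-07). JAZ3 (GhiAffx42068.1.S1_at), a jasmonate-ZIM-domain protein that represses jasmonate responses, read 34.9, 39.3 and 406 under drought and 1891, 1882 and 1903 under watering. Its replicate 3 was far brighter than replicates 1 and 2 but still 4.66-fold below the watered mean (log2 change -2.22, SE 0.13, adjusted p = 5.75e-05). The NAC factor ATAF1 (Ghi3264.1.S1_s_at), known in Arabidopsis for roles in drought and abscisic acid signalling, read 61.7, 20.2 and 329.5 under drought, against 1279, 1188 and 1122 under watering (log2 change -1.86, SE 0.15, adjusted p = 3.55e-04). An ethylene-responsive transcription factor (GhiAffx60317.1.S1_at) read 106, 23.2 and 72.8 under drought and 577, 480.0 and 428 under watering (log2 change -2.76, SE 0.45, adjusted p = 0.00741). ACC oxidase (Ghi7070.1.S1_s_at), the enzyme of the last step of ethylene synthesis, read 231, 33.5 and 223 under drought, against 729, 764 and 789 under watering, with drought replicate 2 well below the other 2 (log2 change -1.77, SE 0.25, adjusted p = 0.00428). None of these 5 overlapped between the groups.

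The remaining falls were mostly enzymes. SBP1 (Ghi5776.1.S1_at), a selenium-binding protein, was the brightest of the 20 under watering, at 828, 905 and 2184 under drought and 10652, 11017 and 11412 under watering (log2 change -2.34, SE 0.07, adjusted p = 1.23e-06). The glutathione transferase GSTU7 (GhiAffx33673.1.S1_s_at), of the tau class of detoxifying enzymes, read 1020.1, 825 and 1249 under drought, against 5961, 4803 and 4815 under watering (log2 change -2.05, SE 0.14, adjusted p = 1.24e-04). Both stayed above the highest absent-transcript control on drought replicates 1 and 2, the only 2 of the 20 to do so. An arginine, diaminopimelate or ornithine decarboxylase (Ghi9106.1.S1_at), of the enzymes that open polyamine synthesis, read 42.1, 23.4 and 22.2 under drought and 178, 242 and 255 under watering (log2 change -3.33, SE 0.24, adjusted p = 1.77e-04). A lipase (GhiAffx21205.1.S1_at), an enzyme that releases fatty acids from lipids, read 30.0, 31.6 and 122 under drought, against 749.8, 713 and 738 under watering (log2 change -2.59, SE 0.20, adjusted p = 2.66e-04). The probe set annotated as a dehydration-responsive protein (Ghi1892.1.S1_at) read 104, 15.4 and 205 under drought and 1309, 2139 and 2117 under watering, and fell without overlap (log2 change -3.14, SE 0.32, adjusted p = 9.33e-04). Lhcb1 (Ghi10635.1.S1_x_at), the chlorophyll-binding antenna protein, read 23.9, 45.7 and 70.8 under drought, against 756, 710.3 and 723 under watering, with no overlap (log2 change -3.36, SE 0.24, adjusted p = 1.56e-04). Lhcb1 is a marker of green tissue, and the 15 green tissue markers together were at 10245, 10361 and 7207 under drought, against 6536, 7227 and 6295 under watering in summed intensity. Dim probe sets read high on drought replicates 1 and 2, and these readings enter the sums. Much of the sums is held by 1 PORA probe set of chlorophyll synthesis (Ghi5297.1.A1_s_at). It read 6293, 3786 and 1971 under drought and 1156, 1198 and 1320.2 under watering. The median of the 15 was 249.9, 138 and 81.8 under drought, against 142, 223 and 222 under watering, so it was lower on drought replicate 3 than on every watered array. Rubisco activase (Ghi1206.1.S1_at), another of the 15, fell too (log2 change -1.34, SE 0.13, adjusted p = 7.53e-04). Of these 15, 4 lay below and 5 above the watered arrays on all 3 drought arrays, and 0, 0 and 1 of them were at the floor under drought, against 3, 2 and 2 under watering. Among the 5 above were other probe sets annotated LHB1B1 or Lhcb1, all dim under watering. Ghi3025.3.S1_s_at read 327, 1518 and 74.1 under drought, against 35.1, 13.3 and 21.1 under watering. Ghi5505.1.A1_at read 69.5, 67.3 and 35.2, against 2.66, 16.8 and 15.7, and Ghi109.1.A1_at was near the floor. The Lhcb1 probe sets thus did not move together. The part of green tissue in the fall of Ghi10635.1.S1_x_at was not tested.

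**Figure D3:**
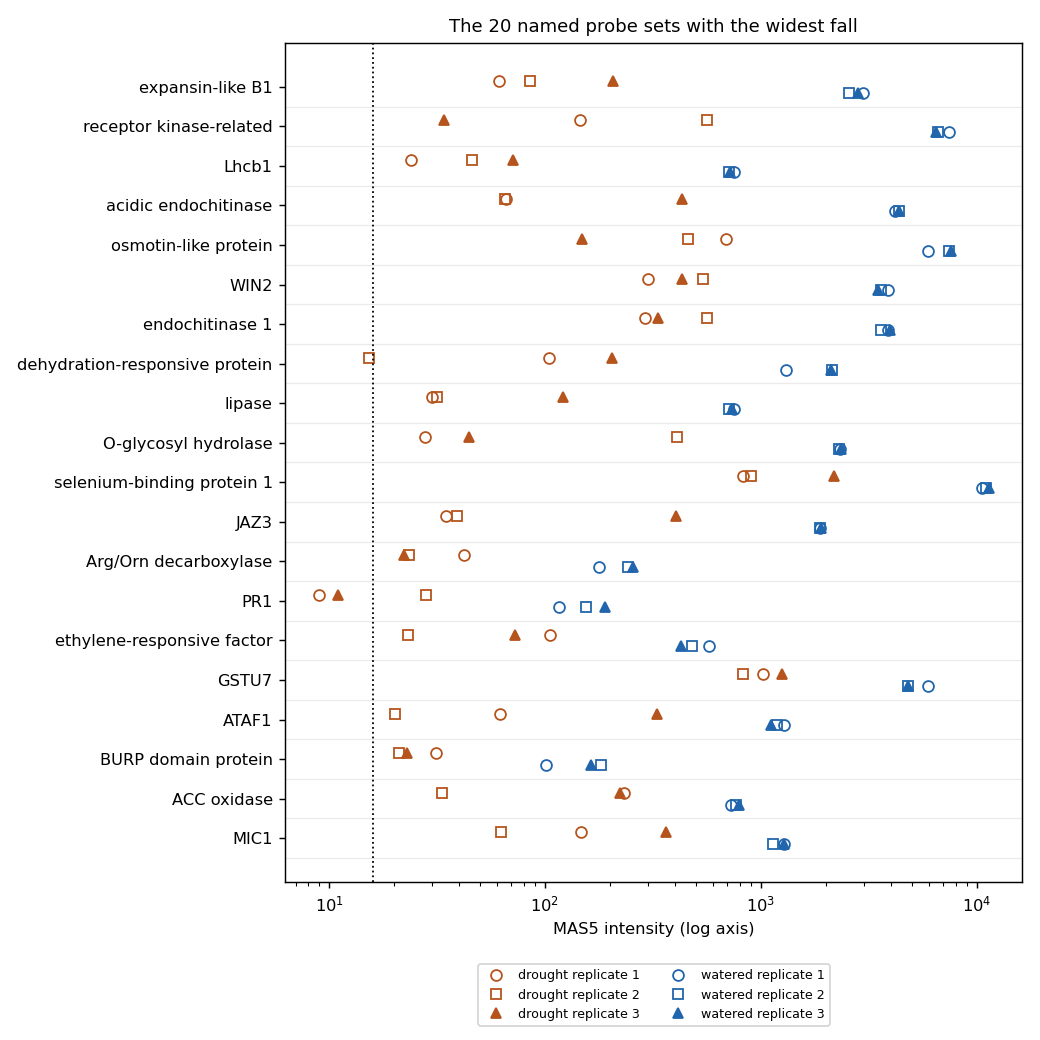
MAS5 intensity on a log axis of the 20 named probe sets with the widest fall, with drought and watered replicates 1 to 3 as separate symbols. Every drought value lies left of every watered value of the same probe set, and drought replicate 3 ranges from 11.0 (PR1) to 2184 (SBP1).

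Of the 12 higher probe sets, 4 are described first. A transporter of the nitrate and oligopeptide family (GhiAffx58791.1.A1_at) read 1449, 726 and 911 under drought, against 83.1, 76.9 and 76.4 under watering. It had the widest gap of the 12, and replicate 3 lay 11.6-fold above the watered mean (log2 change 3.53, SE 0.09, adjusted p = 6.92e-07). GPT2 (GhiAffx6053.1.S1_s_at), the antiporter that brings glucose 6-phosphate into plastids, read 422, 124 and 139.7 under drought and 14.7, 10.5 and 21.2 under watering, where 2 of the 3 arrays were below the floor (log2 change 2.99, SE 0.22, adjusted p = 2.16e-04). A copper chaperone with a heavy-metal-associated domain (GraAffx31587.2.A1_s_at) read 469, 1059.6 and 144 under drought, against 35.8, 34.3 and 43.6 under watering (log2 change 1.94, SE 0.30, adjusted p = 0.00608). CcsA (GhiAffx5352.1.A1_at), a protein of cytochrome c assembly, read 625, 327 and 94.5 under drought and 25.3, 23.7 and 10.6 under watering (log2 change 2.15, SE 0.46, adjusted p = 0.0222). The groups were apart in all 4, with replicate 3 the lowest drought array in the last pair.

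Heat shock genes and genes of hormone response made up a second set. HSP17.6B (GhiAffx2754.1.A1_at), a small heat-shock protein of the cytosol, read 627, 741 and 839 under drought, against 107, 85.2 and 115 under watering. The 3 drought arrays lay close to each other, and replicate 3 was the highest (log2 change 3.05, SE 0.15, adjusted p = 2.19e-05). HSFA2 (Ghi10292.1.S1_s_at), a transcription factor that sustains heat shock gene expression, read 462, 996 and 274 under drought and 80.6, 85.4 and 68.3 under watering (log2 change 1.82, SE 0.16, adjusted p = 4.45e-04). CYP707A4 (GhiAffx24712.1.A1_at), an abscisic acid 8′-hydroxylase that breaks the hormone down, read 629, 101 and 76.7 under drought, against 25.6, 20.7 and 21.7 under watering (log2 change 1.77, SE 0.15, adjusted p = 3.62e-04). Its replicate 1 was far above the other 2 drought arrays, which still lay above all watered arrays. A gibberellin-regulated protein (GhiAffx6042.1.S1_s_at) read 650.1, 109 and 139 under drought and 5.64, 4.33 and 12.3 under watering, all 3 of them below the floor of 16, so its log2 change is one against the floor (log2 change 3.12, SE 0.29, adjusted p = 6.67e-04).

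Nuclear and RNA-binding proteins made up most of the rest. HMGB3 (GraAffx33550.1.A1_s_at), a DNA-bending chromatin protein, read 749, 786 and 410.0 under drought, against 35.8, 47.0 and 81.2 under watering (log2 change 2.99, SE 0.43, adjusted p = 0.00481). A glycine-rich RNA-binding protein (Gra562.1.A1_s_at) read 1533, 1669 and 417 under drought and 93.7, 99.2 and 123 under watering (log2 change 2.0, SE 0.20, adjusted p = 8.68e-04). TAF8 (Gra1954.1.A1_at), a subunit of the general transcription factor TFIID, read 93.1, 570.1 and 53.3 under drought, against 6.86, 2.22 and 6.08 under watering, where all 3 arrays were below the floor (log2 change 1.74, SE 0.28, adjusted p = 0.00742). In each of these 3, replicate 3 was the lowest drought array and still above all watered arrays. The probe set annotated ATPRB1 (Ghi6433.1.A1_at) read 539.9, 135 and 94.8 under drought and 14.4, 16.7 and 27.6 under watering (log2 change 2.28, SE 0.33, adjusted p = 0.00472). On drought replicates 1 and 2, only the transporter, HMGB3 and the glycine-rich RNA-binding protein exceeded the highest absent-transcript control, and for the other 9 at least 1 of these 2 arrays read within the range of such controls.

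**Figure D4:**
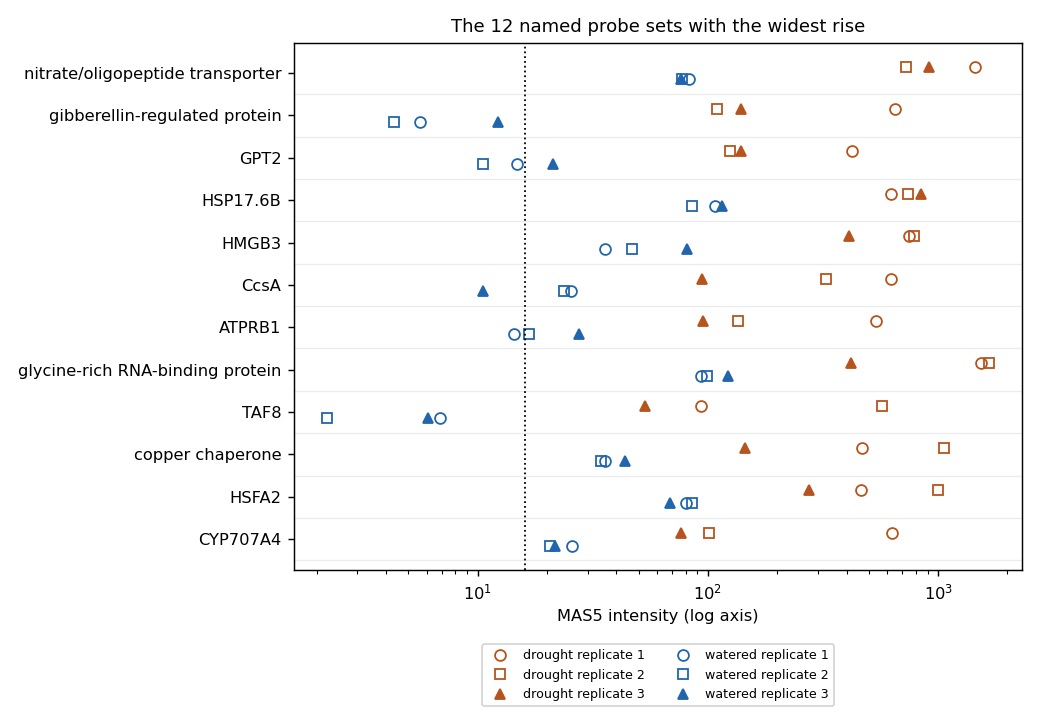
MAS5 intensity on a log axis of the 12 named probe sets with the widest rise, with drought and watered replicates 1 to 3 as separate symbols and the floor of 16 as a dotted line. Every drought value lies right of every watered value, and drought replicate 3 ranges from 53.3 (TAF8) to 911 (the nitrate and oligopeptide transporter).

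Regardless of a name, the 3 widest gaps downward belonged to EXLB1, the receptor kinase-related probe set and Lhcb1. Upward, the widest belonged to Ghi8370.1.S1_s_at, which the lists do not annotate and which read 728, 729 and 1489 under drought, against 65.7, 77.0 and 68.5 under watering (log2 change 4.41, SE 0.23, adjusted p = 2.81e-05). It was followed by the nitrate and oligopeptide transporter and by GhiAffx43013.1.A1_at, also without annotation, at 198, 773 and 146 under drought and 18.1, 8.37 and 1.69 under watering (log2 change 3.13, SE 0.26, adjusted p = 3.35e-04). Replicate 3 was the highest drought array of the one and the lowest of the other.

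Groups of genes with a shared role were then set beside all probe sets, for which the median log2 change was 0.84 in the fit to 6 arrays and 0.00 on replicate 3, and beside the 880 named probe sets, of which 21.2% lay below and 19.8% above the watered arrays on all 3 drought arrays and 15.8% fell and 10.6% rose. The fit to 6 arrays called no member of any list.

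Of the 17 defence proteins, 13 lay below all watered arrays and 1 above, and 11 fell and 1 rose. Their median change on replicate 3 was -1.76. Besides those named above, a CC-NBS-LRR resistance protein (GhiAffx7183.1.A1_at), of the intracellular receptors for pathogen effectors, read 10.9, 30.1 and 9.58 under drought, against 88.9, 71.3 and 106 under watering (log2 change -2.45, SE 0.20, adjusted p = 2.86e-04). A mannose-binding lectin (GhiAffx3185.1.S1_at) read 336, 77.7 and 783 under drought and 2338, 2196 and 2226 under watering (log2 change -1.52, SE 0.12, adjusted p = 2.21e-04). These 2 were singled out after their values were seen. The 1 that rose was another MIC1 probe set (Ghi6645.1.S1_at), at 455, 50.8 and 55.6 under drought and 11.8, 19.1 and 9.78 under watering (log2 change 1.71, SE 0.25, adjusted p = 0.00515). The MIC1 probe sets thus did not move together, and transcripts of such near copies can share probes. ATPRB1 (Ghi6433.1.A1_at), by its name a pathogenesis-related protein and one of the 12 rises, is not in this list, since no keyword matched it. The list has a median watered intensity of 735, against 62.6 over all probe sets, and bright probe sets were more often lower on replicates 1 and 2 in general, as given above. On replicate 3 alone the median change lay between -0.07 and 0.04 in every class of level. With the 2-fold condition on replicate 3, the share below on all 3 arrays still ran from 0.0415% in the dimmest class to 4.13% in the brightest. The part of level in the falls of this list was not tested.

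Peroxidases, glutathione transferases and other redox enzymes were 16, of which 5 lay below and 1 above, and 9 fell and 1 rose, with a median of -1.14 on replicate 3. Peroxidase 10 (GhiAffx21573.1.S1_at), a secreted heme peroxidase, read 24.9, 402 and 36.3 under drought and 748, 760.2 and 750.4 under watering (log2 change -4.37, SE 0.24, adjusted p = 4.31e-05). Peroxidase 73 (Ghi6559.1.S1_at) read 1017, 1606 and 1136 under drought, against 2533, 2289.8 and 2265 under watering (log2 change -1.05, SE 0.16, adjusted p = 0.00597). AOX2 (Ghi9264.2.A1_s_at), an alternative oxidase of the mitochondrial electron chain, lay below all watered arrays at 396, 59.6 and 586 under drought and 793, 1612 and 1618 under watering without passing the test (log2 change -1.12, SE 0.38, adjusted p = 0.1). The groups did not overlap in any of the 3.

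Of 11 sterol, lipid and wax enzymes 3 lay below and 1 above, and 6 fell and 0 rose, with a median of -1.34 on replicate 3. LOX1 (Ghi234.1.S1_s_at), a lipoxygenase that oxidises linolenic and linoleic acid, read 515, 886 and 686 under drought, against 1847, 1649 and 1702 under watering (log2 change -1.34, SE 0.13, adjusted p = 9.02e-04). Fatty acid 9-hydroperoxide lyase (GhiAffx47143.1.S1_at), which splits the lipoxygenase products, read 882, 31.7 and 304 under drought and 984, 997 and 1031 under watering (log2 change -1.73, SE 0.08, adjusted p = 1.57e-05). The cyclopropane fatty acid synthase of this list is given with the primer sets below.

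Among 18 WRKY, NAC and MYB factors, 5 lay below and 1 above, and 7 fell and 2 rose. WRKY75 (GhiAffx6177.1.S1_at), known in Arabidopsis for phosphate starvation and root hair growth, read 24.5, 113 and 40.6 under drought, against 290.5, 284 and 261 under watering (log2 change -2.78, SE 0.20, adjusted p = 1.60e-04). WRKY40 (Ghi9192.1.S1_s_at), a regulator of abscisic acid and defence responses in Arabidopsis, read 27.6, 29.9 and 34.3 under drought and 94.2, 91.8 and 83.8 under watering (log2 change -1.39, SE 0.27, adjusted p = 0.0148). A second ATAF1 probe set (GhiAffx58305.1.S1_s_at) read 54.1, 29.2 and 84.4 under drought, against 231, 238 and 221 under watering, below on every array as the first one was (log2 change -1.45, SE 0.14, adjusted p = 7.62e-04).

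Of 13 probe sets of ethylene synthesis and senescence 4 lay below and 1 above, and 4 fell and 0 rose. The second ACC oxidase (Ghi8025.1.S1_s_at) read 271, 74.5 and 87.7 under drought, against 837, 1133 and 1272 under watering (log2 change -3.60, SE 0.25, adjusted p = 1.41e-04). EBF1 (Ghi4158.2.S1_s_at), an F-box protein that marks the ethylene factor EIN3 for degradation and that stands in the ubiquitin list, read 15.2, 23.9 and 336 under drought and 831, 901 and 847 under watering (log2 change -1.35, SE 0.13, adjusted p = 6.58e-04). Both were lower on every drought array. Of 45 receptor and protein kinases 9 lay below and 6 above, and 9 fell and 2 rose, among them a leucine-rich repeat kinase (Ghi6786.1.S1_at) at 371, 50.8 and 147 under drought and 1278, 953 and 972 under watering (log2 change -2.85, SE 0.17, adjusted p = 5.64e-05). The keyword for kinases also caught proteins that are not protein kinases, among them phosphoglycerate kinase, the cyclin-dependent kinase subunit CKS1, and PKS1 and SKP1 of those above. Of the 2 that rose, 1 was P5CS2 (GraAffx27366.1.S1_at), an enzyme of proline synthesis (log2 change 2.81, SE 0.21, adjusted p = 1.85e-04).

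Heat shock proteins and chaperones went the other way. Of 32 members 14 lay above and 3 below all watered arrays, and 13 rose and 3 fell, with a median of 0.67 on replicate 3. HSP70 (Ghi10640.1.S1_s_at), the ATP-driven chaperone, read 339, 883 and 769 under drought, against 97.2, 165 and 140.3 under watering (log2 change 2.55, SE 0.27, adjusted p = 0.00111). A probe set listed as HSC70-1 (Ghi9637.2.S1_s_at), the constitutive relative of HSP70, is annotated elsewhere in the study as an NAD-dependent epimerase/dehydratase. It read 3407, 1779 and 583 under drought and 253, 194 and 228 under watering (log2 change 1.38, SE 0.18, adjusted p = 0.00286). HSP90.1 (GhiAffx17865.1.S1_at), a chaperone of signalling proteins, read 98.5, 962 and 410.3 under drought, against 42.3, 65.6 and 55.6 under watering (log2 change 2.93, SE 0.27, adjusted p = 5.87e-04). These 3 probe sets lay above on every array. The chloroplast small heat-shock protein HSP21 (Ghi2233.1.S1_at) read 1053, 52.4 and 1251 under drought and 78.6, 45.8 and 52.2 under watering (log2 change 4.45, SE 0.35, adjusted p = 2.75e-04), and HSP22 (GhiAffx25696.1.S1_at), of the endoplasmic reticulum, read 747, 45.8 and 721 under drought, against 56.1, 40.1 and 38.9 under watering (log2 change 4.02, SE 0.19, adjusted p = 1.78e-05). In these 2, drought replicate 2 lay within the watered range while replicates 1 and 3 were far above it. HSP70, HSP90.1, HSP21 and HSP22 were singled out after their values were seen.

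Sucrose and starch enzymes were 15, of which 4 lay above and 0 below, and 7 rose and 0 fell, with a median of 0.80 on replicate 3. Starch synthase (Ghi9768.1.S1_s_at) was bright, at 5142, 6288 and 11704 under drought, against 4131, 3526 and 3409 under watering (log2 change 1.67, SE 0.11, adjusted p = 9.18e-05), though its change over all 6 arrays was 0.98 as scaled and -0.68 with the arrays centred on their medians. Granule-bound starch synthase 1 (Gra1394.1.A1_s_at), which makes amylose, read 742, 72.8 and 167 under drought and 7.27, 28.6 and 40.7 under watering (log2 change 2.66, SE 0.50, adjusted p = 0.014). Of 8 thiamine and pantothenate enzymes 3 lay above and 0 below, and 4 rose and 0 fell. THI1 (Gra2938.2.A1_at), which makes the thiazole part of thiamine, read 849.8, 908 and 1755 under drought, against 198, 244 and 292 under watering (log2 change 2.86, SE 0.22, adjusted p = 2.18e-04). THI1 had a further probe set (Gra70.1.S1_s_at), with 477, 1079 and 1022 under drought and 404, 416 and 416 under watering, also above on every array (log2 change 1.31, SE 0.05), with a change over all 6 arrays of 0.97 as scaled and -0.69 with centring. Another THI1 probe set, Ghi10424.1.S1_s_at, overlapped, at 225, 296 and 1017 under drought and 396, 422 and 394 under watering. Its replicates 1 and 2 lay below all watered arrays and its replicate 3 above them.

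Amino acid enzymes were split, with 4 of 13 below and 2 above, and 1 fell and 3 rose. L-asparaginase (Gra2835.2.S1_s_at), which releases ammonia from asparagine, read 32588, 17799 and 4869 under drought, against 1676, 1346 and 1495 under watering, with replicates 1 and 2 several times brighter than replicate 3 (log2 change 1.70, SE 0.12, adjusted p = 1.90e-04). Proline oxidase (Ghi9171.3.A1_s_at), the enzyme that degrades the osmolyte proline, read 26.0, 107 and 35.5 under drought and 142, 162 and 147 under watering, lower on every array (log2 change -2.08, SE 0.20, adjusted p = 8.25e-04). Of 9 dehydration and osmotic response proteins 5 lay below and 3 above, and 2 fell and 1 rose. The dehydration-responsive protein Ghi1892.1.S1_at, among the 20 falls, is not in this list, since no keyword matched its name. ERD9 (Ghi779.1.S1_at), a glutathione transferase first described as responsive to dehydration, read 38.6, 93.6 and 147 under drought, against 345, 366 and 409 under watering (log2 change -1.34, SE 0.13, adjusted p = 7.38e-04). The 1 that rose was a seed maturation-like protein (GraAffx20197.1.A1_at), at 27.4, 311 and 35.5 under drought and 13.3, 8.28 and 2.84 under watering. Its watered values were all below the floor, so its adjusted p of 1.33e-09 rests on a spread that the floor sets.

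In other lists the counts of the non-overlap and of the test differed. Of 34 ribosome and translation probe sets 11 lay below and 1 above, but 2 fell and 2 rose, and of 17 mitochondrial and vacuolar energy proteins 8 lay below and 1 above, with 1 fall and 2 rises. These 2 lists had median watered intensities of 1564 and 1445. Lipid transfer and glycine-rich proteins had 9 of 17 above and 0 below, with 3 rises and 0 falls. Of 41 cell wall members 6 lay below and 13 above, with 4 falls and 2 rises, of 23 water channels and ion transporters 3 and 6, with 3 falls and 0 rises, and of 19 AP2, ERF and DREB factors 0 and 6, with 4 falls and 1 rise. In that last list the probe set annotated ERF1-1 is a translation release factor that the keyword caught. The 47 members of the ubiquitin, proteasome and protease list had 7 below and 12 above, with 5 falls and 3 rises, and the 10 of auxin response had 2 and 3, with 2 of each. Of 18 phenylpropanoid and flavonoid enzymes 2 lay below and 3 above and none rose or fell. The 5 root markers had 2 below and 1 above and summed to 2254, 1673 and 1017 under drought, against 3451, 3046 and 3201 under watering. Their part in the other falls was not tested.

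**Figure D5:**
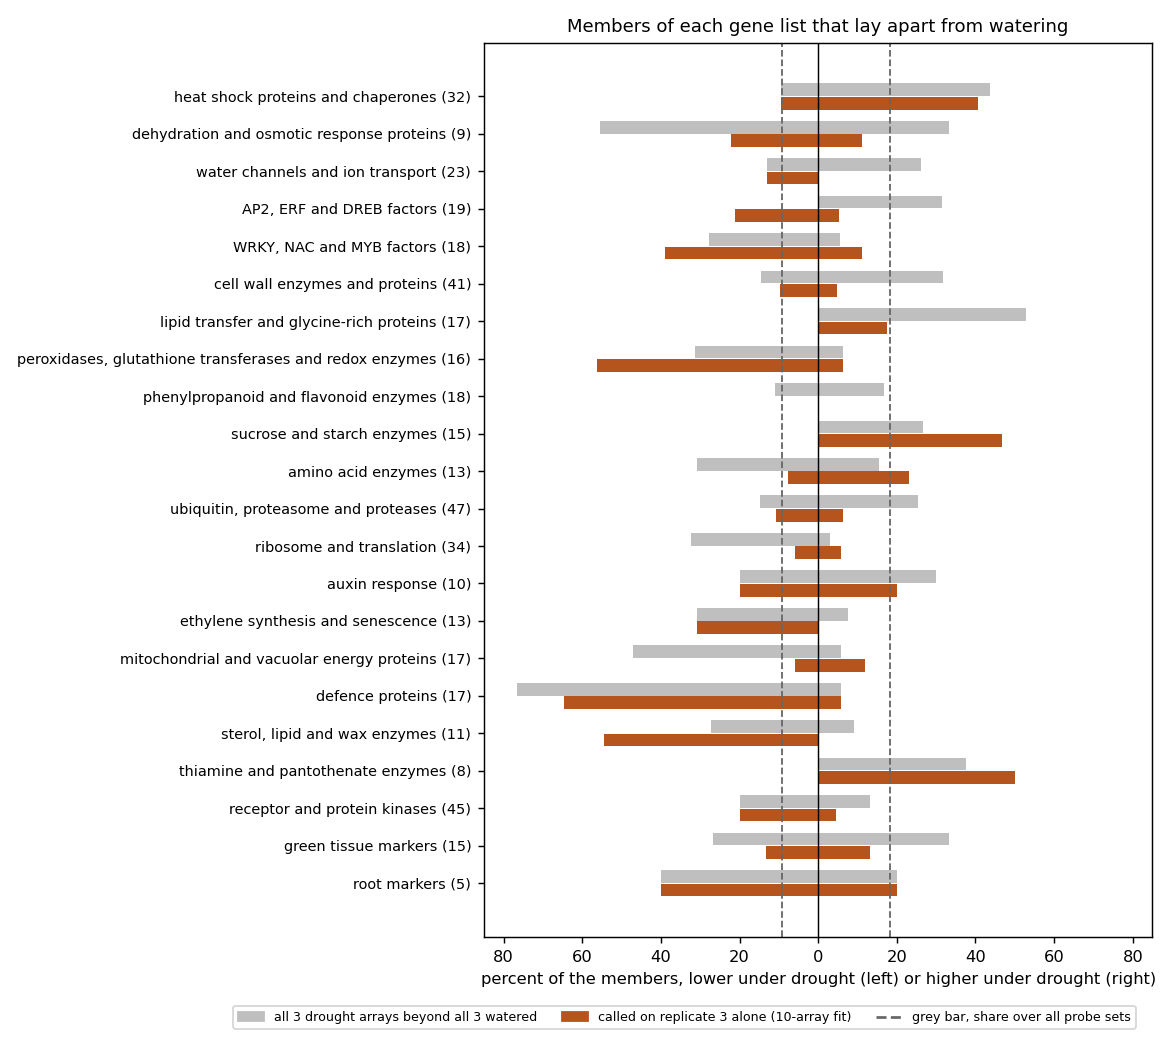
Percent of the members of each gene list (number of members in parentheses) that lay below (left) or above (right) all watered arrays on all 3 drought arrays (grey) and that fell or rose with replicate 3 alone (brown). Dashed lines give the grey share over all probe sets, 9.16% below and 18.2% above. Defence proteins reach furthest to the left and lipid transfer and glycine-rich proteins furthest to the right in grey.

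The study chose 6 probe sets for quantitative RT-PCR in Vagad and gives primers for 10. EXLB1 is one of the 6 and is described above. Of the others, MIC1 Ghi6528.1.S1_at, also annotated as a sodium/hydrogen exchanger, read 895, 1197 and 347 under drought, against 1790.3, 1559.8 and 1525 under watering, and fell (log2 change -2.22, SE 0.10, adjusted p = 1.60e-05). XTR4 (GraAffx8742.1.S1_at), a xyloglucan endotransglycosylase that cuts and rejoins wall polysaccharides, read 1042, 1205 and 261 under drought and 147, 162 and 166 under watering. It lay above on every array without passing the test (log2 change 0.72, SE 0.46, adjusted p = 0.381). UVI4 (GraAffx33038.1.S1_s_at), an inhibitor of endoreduplication in Arabidopsis, read 139, 192 and 50.7 under drought, against 41.0, 26.3 and 14.1 under watering, and likewise did not pass (log2 change 0.97, SE 0.48, adjusted p = 0.237). Squalene monooxygenase (Ghi482.1.A1_s_at), of sterol synthesis, read 3457, 3012 and 9167 under drought and 10746, 8942 and 8254 under watering, and here replicate 3 overlapped with the watered arrays (log2 change -0.01, SE 0.24, adjusted p = 1). The sixth, GhiAffx43814.1.S1_at, of unknown function, read 563, 878 and 65.3 under drought, against 1424, 1319 and 1358 under watering, with replicate 3 far below the other 2 drought arrays (log2 change -4.39, SE 0.19, adjusted p = 1.00e-05).

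Among the probe sets with primers alone, cyclopropane fatty acid synthase (Ghi8158.1.S1_s_at), which adds a methylene bridge to unsaturated fatty acids, read 399, 1056 and 1023.5 under drought and 3258, 4516 and 4676 under watering, and fell without overlap (log2 change -2.0, SE 0.19, adjusted p = 6.16e-04). A glycine-rich RNA-binding protein (Gra551.1.A1_s_at) read 1983, 1645 and 353 under drought, against 228, 128 and 111 under watering (log2 change 1.26, SE 0.48, adjusted p = 0.135). The proteasome-related GhiAffx31372.1.S1_at lay below on every array, at 269, 28.9 and 355 under drought and 504, 625 and 658 under watering (log2 change -0.74, SE 0.22, adjusted p = 0.0723). For GhiAffx60321.1.S1_x_at, which the lists name both the calmodulin-like TCH2 and a pectinesterase, the BRI1-associated receptor kinase (GhiAffx12729.1.A1_at) and the RNA-directed DNA polymerase (GhiAffx12340.1.S1_at) the groups overlapped, and none passed the test. The primers of the 3 probe sets below are shown since they cover a fall on all arrays (Ghi8158.1.S1_s_at), a set that was higher on every array but did not pass (GraAffx8742.1.S1_at) and a fall that was shallower in Vagad than in RAHS-14 (Ghi6528.1.S1_at).
Ghi8158.1.S1_s_at forward: atggatgctgcacatggtatctt
Ghi8158.1.S1_s_at reverse: agaggcgtgccgttgtttc
GraAffx8742.1.S1_at forward: aggcatcccaaatggtagcatat
GraAffx8742.1.S1_at reverse: cgtcgatgaagttccaattcg
Ghi6528.1.S1_at forward: gcatccttcagccctacaatagc
Ghi6528.1.S1_at reverse: ggatatgagcttcggaggaaaatg

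The response of Vagad was finally set against that of RAHS-14, whose 6 arrays share no sample with the 6 of Vagad. The fit with replicate 3 alone, however, took its spread in part from these RAHS-14 arrays. Its calls and the calls in RAHS-14 are therefore not independent of each other. In RAHS-14 limma called 615 probe sets lower (2.56%) and 483 higher (2.01%), and the drought arrays all lay below the watered ones for 3791 probe sets (15.8%) and above for 4070 (16.9%). Of the 338 lower probe sets of Vagad, 224 also lay below in RAHS-14 and 29 lay above, which is 66.3% and 8.58% of the 338 and 5.91% and 0.713% of the RAHS-14 sets. Of the 952 higher ones, 322 lay above in RAHS-14 (33.8% of the 952, 7.91% of the RAHS-14 set) and 50 below (5.25% and 1.32%). Of the 673 that fell with replicate 3 alone, 225 were called lower in RAHS-14 and 9 higher, and of the 767 that rose, 186 were called higher and 5 lower.

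Among the 20 named falls, 11 lay below in RAHS-14 too, 6 lay above and 3 overlapped. RAHS-14 called 6 of them lower and 3 higher. The 3 called higher were EXLB1 (log2 change 2.03, adjusted p = 0.00446), SBP1 (log2 change 2.48, adjusted p = 1.54e-04) and the dehydration-responsive protein (log2 change 1.74, adjusted p = 0.00418). EXLB1 read 400.5, 381 and 339 in droughted RAHS-14, against 108, 71.3 and 98.8 in watered RAHS-14, so the values of droughted Vagad overlapped with those of watered RAHS-14. The receptor kinase-related Ghi5773.1.S1_at, Lhcb1 and MIC1 Ghi6546.1.S1_s_at were called lower in both genotypes. Of the 12 named rises, 8 lay above in RAHS-14, 4 overlapped and none lay below, and 5 were called higher there, among them HSP17.6B (log2 change 3.07, adjusted p = 3.85e-05), HSFA2 (log2 change 2.20, adjusted p = 6.98e-04) and CYP707A4 (log2 change 2.62, adjusted p = 4.24e-04). By list, RAHS-14 called 15 of 32 heat shock members higher and 2 lower, and 7 of 15 sucrose and starch enzymes higher and 0 lower. It called 4 of 8 thiamine and pantothenate enzymes higher and 0 lower, and 1 of 17 defence proteins higher and 3 lower. Of 18 phenylpropanoid and flavonoid enzymes it called 13 higher and 0 lower. Over the 880 named probe sets, from which the lists were drawn, it called 109 higher and 79 lower. Whether these counts differ from those of Vagad was not tested.

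The difference between the genotypes was tested as an interaction. With all 12 arrays 5 probe sets had a more negative change in Vagad (0.0208%) and 2 a more positive one (0.00832%). The 5 were EXLB1 (difference of the log2 changes -6.79, SE 0.58, adjusted p = 0.00228), squalene monooxygenase (difference of the log2 changes -7.36, SE 0.58, adjusted p = 0.00228), SBP1 (difference of the log2 changes -5.70, SE 0.51, adjusted p = 0.00235), endochitinase 1 (difference of the log2 changes -3.60, SE 0.42, adjusted p = 0.0183) and a second SBP1 probe set, Ghi585.1.S1_s_at (difference of the log2 changes -4.66, SE 0.43, adjusted p = 0.00287). The 2 were MIC1 Ghi6528.1.S1_at (difference of the log2 changes 6.82, SE 0.58, adjusted p = 0.00228) and GhiAffx1161.1.S1_at, which is not annotated (difference of the log2 changes 3.05, SE 0.38, adjusted p = 0.0309). Both Ghi585.1.S1_s_at and GhiAffx1161.1.S1_at were singled out after their values were seen. Squalene monooxygenase read 2698, 2526 and 2396 in droughted RAHS-14, against 32.8, 24.6 and 37.7 in watered RAHS-14, whereas the Vagad groups overlapped. The second SBP1 probe set overlapped between the groups in Vagad, at 1120.3, 1997 and 2311 under drought and 1619, 1559 and 1574 under watering, and read 423, 399.9 and 506 in droughted RAHS-14, against 7.28, 2.87 and 2.90 in watered RAHS-14. MIC1 Ghi6528.1.S1_at read 12.8, 0.86 and 13.6 in droughted RAHS-14, against 3939, 4404 and 3875 in watered RAHS-14, a deeper fall than in Vagad. Drought values of that probe set and watered values of the second SBP1 probe set lay below the floor of 16 in RAHS-14, so both differences are against the floor. When drought replicates 1 and 2 of Vagad were left out, 436 probe sets had a more negative change in Vagad (1.81%) and 627 a more positive one (2.61%), by the same threshold. Over all 12 arrays, 3 of the 20 named falls passed with a more negative change in Vagad, and 0 of the 12 named rises passed. The 20 and the 12 were chosen in part by the change of replicate 3. Without drought replicates 1 and 2 that same change enters the difference, so its direction for them was favoured by the choice. In that fit the difference of the log2 changes was 6.06 for MIC1 Ghi6546.1.S1_s_at among the falls and -1.93 for GPT2 among the rises. Droughted RAHS-14 values of that MIC1 probe set all lay below the floor of 16. Most watered values of GPT2 lay below it in both genotypes. Both differences are therefore in part against the floor.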

How the data were processed

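The series holds 12 Affymetrix cotton arrays, hybridised with biotin-labelled cRNA of root total RNA. The authors deposited MAS5 signal intensities on a linear scale, computed per probe set with the Affymetrix GCOS program and scaled by 1 factor per array. Why the controls for absent transcripts read high on some arrays was not tested. The sources used here do not give the version of MAS5. All 12 value columns were mapped to samples, and 0 were left unmapped.

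Intensities were floored at 16 and log2-transformed. The 103 control probe sets were left out and 24029 tested with limma 3.58.1 in R 4.3.3 (lmFit, eBayes), with Benjamini-Hochberg adjustment over all of them. A call needed an adjusted p under 0.05 and a change of at least 2-fold. The first fit used the 6 Vagad arrays, the second 10 arrays in 4 groups without drought replicates 1 and 2, and the difference between genotypes was an interaction over 12 or 10 arrays. Non-overlap was counted on floored values, ties counting as overlap. The fits were run on simulated data as a check of the code, with baselines brighter than those of dim probe sets. No result given here rests on that run. A fold of replicate 3 is its floored value against the geometric mean of the watered arrays. Arrays have no read depth, so their number limits the precision.

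Named are the 20 lower and 12 higher probe sets with a gene name, a 2-fold change on replicate 3 and the widest gap, the probe sets with qRT-PCR or primers, up to 4 members per list and the 3 widest gaps each way. Gene names, primers and the keyword lists come from supplementary lists of the study, and the members and lists were chosen with earlier results of these data known. The methods' t-test, other floors and scalings, a replicate block, array weights and left-out arrays were tried as alternatives.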

Additional observations from a re-analysis of the deposited data

Results flagged for a closer look

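The change under drought differed between Vagad and RAHS-14 for 5 probe sets named in the report, by the test of that difference over all 12 arrays, with differences of the log2 changes, Vagad minus RAHS-14, of -6.79 for EXLB1 (GhiAffx46297.1.S1_s_at), -7.36 for squalene monooxygenase (Ghi482.1.A1_s_at), -5.70 for SBP1 (Ghi5776.1.S1_at), -3.60 for endochitinase 1 (Ghi6521.1.S1_at) and 6.82 for MIC1 (Ghi6528.1.S1_at). In EXLB1, SBP1 and endochitinase 1 every drought array lay below the watered arrays in Vagad and above them in RAHS-14. Squalene monooxygenase overlapped between the Vagad groups, and MIC1 lay below in both genotypes, less so in Vagad.

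In further probe sets every drought array lay on 1 side of the watered arrays in Vagad and on the opposite side in RAHS-14, but the difference did not pass the threshold over all 12 arrays. Their log2 changes over all 6 Vagad arrays follow. Lower in Vagad and higher in RAHS-14 were the osmotin-like protein Ghi10646.1.S1_s_at (-4.27), the dehydration-responsive protein Ghi1892.1.S1_at (-4.69), the glycosyl hydrolase Ghi10826.1.S1_at (-4.87) and the ethylene signalling F-box protein EBF1, Ghi4158.2.S1_s_at (-4.09). The same held for GhiAffx43814.1.S1_at of unknown function (-2.10), cyclopropane fatty acid synthase Ghi8158.1.S1_s_at (-2.44), the proteasome-related GhiAffx31372.1.S1_at (-2.08) and peroxidase 73, Ghi6559.1.S1_at (-0.94). It held too for a probe set of chalcone synthase, the first enzyme of flavonoid synthesis, Gra207.1.A1_s_at (-2.11), asparagine synthetase ASN1, Gra1614.2.S1_x_at (-0.91), glutamate synthase GLT1, GhiAffx53252.1.S1_s_at (-1.07), a probe set of the auxin response repressor IAA9, Ghi9984.1.S1_s_at (-0.72), and the senescence-associated protein SAG29, Ghi7106.1.A1_at (-1.35). Another IAA9 probe set, Gra2585.1.A1_at, went the other way in Vagad. It read 402, 977 and 106 under drought, against 25.5, 14.9 and 42.0 under watering, near the floor. Chalcone synthase Gra207.1.A1_s_at read 414, 286 and 1509.7 under drought, against 2427, 2325 and 2558 under watering in Vagad. In RAHS-14 it read 3063, 3084 and 3249 under drought, against 684, 648 and 667 under watering. Another chalcone synthase probe set, Ghi1443.1.S1_x_at, overlapped in Vagad, at 2323, 2420 and 4590 under drought and 4312, 3357 and 3542 under watering. Ghi2516.1.S1_s_at lay below in Vagad, at 1339, 1294 and 1231, against 1750, 1526 and 1551. In RAHS-14 both lay above.

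Higher in Vagad and lower in RAHS-14 were UVI4, GraAffx33038.1.S1_s_at (2.10), a cysteine protease, Ghi1781.1.S1_at (3.07), an oleosin-like glycine-rich protein, GhiAffx6671.1.S1_s_at (1.82), a THI1 probe set, Gra70.1.S1_s_at (0.97), the phytochrome kinase substrate PKS1, GhiAffx25509.1.A1_at (1.81), and the unannotated GhiAffx43013.1.A1_at (4.08).

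The 23 controls for transcripts that plants lack, which enter no comparison, had medians of 136 on drought replicate 1 and 98.2 on drought replicate 2 of Vagad, against 2.22 to 6.94 on the watered Vagad arrays.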

How the results depend on the processing

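The fit to 6 Vagad arrays called 0 higher and 0 lower probe sets. It called 0 higher and 1 lower with a floor of 64, 2 and 14 with a floor 16 times higher, and 529 and 208 with all 12 arrays in 1 fit. The methods' t-test gave 969 and 439 unadjusted and 0 and 0 after Benjamini-Hochberg, and limma's unadjusted p, an alternative chosen after seeing the data, 2623 and 578. Leaving out 1 array at a time gave 0 to 7263 higher and 0 to 2008 lower, with every call coming from the set without drought replicate 3. Centring on the median, quantile normalization, array weights, a trended robust fit, no fold minimum and the brighter probe sets alone gave 0 and 0.

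The fit with replicate 3 alone called 767 higher and 673 lower. These became 590 and 1076 with each array centred on its median, 414 and 474 with a floor of 64, 191 and 243 with a floor 16 times higher, 502 and 639 among probe sets above the median mean, 359 and 280 in 4 Vagad arrays only, and 2570 and 1704 with no fold minimum. Leaving out a watered array gave 644 to 816 higher and 566 to 923 lower. Non-overlapping probe sets numbered 4366 above and 2202 below. They became 908 and 7443 with centring, 2112 and 3160 after quantile normalization, 1678 and 2165 with a floor of 64, 866 and 1960 with a floor 16 times higher, 1562 and 2078 above the median mean, and 398 and 131 with a gap of at least 1 log2 unit. Leaving out 1 array gave 4809 to 12777 above and 2354 to 4605 below, the highest without drought replicate 3. The interaction (2 more positive, 5 more negative) became 1 and 7 with centring, 8 and 13 after quantile normalization, 44 and 57 with a floor 16 times higher, and 627 and 436 without drought replicates 1 and 2.

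Samples with the same replicate number did not deviate together (correlations 0.0329, 0.0133 and 0.047), so the numbers were not taken to pair them. With the replicate number as a block the 6 arrays gave 0 calls, the interaction gave 1 more positive and 4 more negative, and none of the 110 named probe sets changed its call.

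Among the 110 named, 78 passed the threshold without drought replicate 3 and 6 with a floor 16 times higher. Over all 24029 probe sets, 7263 higher and 2008 lower passed without drought replicate 3, and 2 higher and 14 lower with that floor. Most of the 110 were chosen because their groups did not overlap, so their counts were favoured by the choice. The log2 change turned negative with centring for Ghi5211.1.A1_at (-0.11), Ghi9398.1.S1_a_at (-0.72), Ghi9768.1.S1_s_at (-0.68), GhiAffx12729.1.A1_at (-1.65), GhiAffx60321.1.S1_x_at (-0.23), Gra2682.2.S1_s_at (-0.54), Gra70.1.S1_s_at (-0.69), GraAffx18362.1.A1_s_at (-0.43), GraAffx4859.1.A1_at (-0.05) and GraAffx9604.1.S1_s_at (-1.29). It did so after quantile normalization for Ghi2696.1.A1_s_at (-0.19), Ghi5211.1.A1_at (-0.05), GhiAffx12729.1.A1_at (-1.36), GhiAffx60321.1.S1_x_at (-0.07) and GraAffx9604.1.S1_s_at (-0.08). Without drought replicates 1 and 2, GhiAffx12340.1.S1_at turned to 0.25 and GhiAffx60321.1.S1_x_at to -0.34. Leaving out 1 array turned GhiAffx12729.1.A1_at to -0.35 (drought replicate 2), -0.19 (drought replicate 3) and -0.09 (watered replicate 3), within a range of -0.35 to 0.56 over the 6 arrays left out. The causes of these changes were not tested. The high readings of absent-transcript controls on drought replicates 1 and 2 limit what rises of dim probe sets can show. Drought replicate 3 alone has no replicate of its own.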
